A study of Mus musculus with 12 samples.

Results

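Interferon gamma is a cytokine made mainly by T cells and natural killer (NK) cells. Its receptor acts through the kinases JAK1 and JAK2, and the response reaches genes through GAS elements in DNA and through ISRE elements, which the induced factor IRF1 binds. In mice the induced genes include the guanylate-binding proteins (GBPs) and the immunity-related GTPases (IRGs), which attack the vacuoles of intracellular parasites and bacteria, and the immunoproteasome, which cuts proteins into peptides that MHC class I displays to CD8 T cells. The 32 genes described here are 8 GBPs, 7 IRGs, 5 immunoproteasome genes, 3 genes of ADP-ribosylation and ubiquitin transfer, 4 genes for enzymes and secreted or surface proteins, and 5 genes for nuclear and signalling proteins. They were listed by name, with no threshold on a measured value, but with earlier results of these data known. All 32 were among the 35999 gene names measured, and all 32 were among the 17940 genes with enough counts to be tested.

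RNA came from subcutaneous tumours of AB1-HA, a mouse mesothelioma line that carries influenza haemagglutinin, in male BALB/c mice aged 8 to 10 weeks. The 6 anti-CD4 tumours came from mice given 100 µg of a monoclonal antibody that removes CD4 T cells, and the 6 PBS tumours from mice given PBS, in both cases on days -3, 0 and 7 around inoculation. Tumours were excised on day 9, so the antibody was present before the tumour cells were. The same tumour line grew in every mouse, and CD4 marks regulatory as well as helper T cells, so the depletion is not limited to either subset.

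Totals were 34.5 to 62.1 M estimated counts in anti-CD4 tumours and 30.7 to 41.9 M in PBS tumours. Cd4 was 0.618 to 2.13 CPM (the count scaled to library size) in anti-CD4 tumours and 4.35 to 9.93 CPM in PBS tumours (log2 fold change -2.26, SE 0.28, edgeR adjusted p = 0.00298). Of 7 markers of mesothelial cells, Msln was 92.6 to 155 CPM in anti-CD4 tumours and 94.7 to 140 CPM in PBS tumours, Wt1 and Krt8 were detected in every tumour, and Krt18, Krt19 and Upk3b were too low to be tested. The seventh, Pdpn, rose, at 32.1 to 37.5 CPM in anti-CD4 tumours and 24.7 to 30.03 CPM in PBS tumours (log2 fold change 0.33, SE 0.06, edgeR adjusted p = 0.0186). In such bulk tissue, fewer cells of a type and less RNA per cell cannot be told apart. A log2 fold change below is anti-CD4 over PBS, and a gene is said to have risen or fallen only at a Benjamini-Hochberg adjusted p under 0.05 over all 17940 genes.

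Promoter sequence was at hand for 22 of the 32 genes, in 27 windows that run from 250 bases before to 50 bases after a RefSeq transcription start (build GRCm38.p6). The GAS letters TTCNNNGAA, searched on both strands, were in 9 windows (33.3%), against 8.3% of 32851 promoter windows of all genes. The ISRE core letters GAAANNGAA, also on both strands, were in 10 windows (37%), against 8.56% of all windows. Both were in 6 windows (22.2%), against 1.07% of all windows, and no GAS match overlapped an ISRE core match. The 6 genes with both are Gbp5, Gbp7, Igtp, Irgm2, Tgtp1 and Tgtp2. GAS letters alone were in the windows of Psmb8, Icam1 and Samhd1, and ISRE core letters alone in those of Gbp2, Gbp3, Irgm1 and Psme1. A match of letters is a description and does not show that a factor binds.

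The stretches below show how the elements lie in GTPase genes of both families, 5′ to 3′ on the strand of the gene, with the matches in capitals. In Gbp2 and Gbp7 the ISRE core lies on the opposite strand, so its capitals are the reverse complement of the letters searched. Gbp2 has an ISRE core alone, 58 bases before its start (chr3:142620595-142620623, plus strand), and Gbp7 has a pair of GAS matches followed by an ISRE core (chr3:142530220-142530302, plus strand). In Igtp (chr11:58199501-58199540, plus strand), Irgm2 (chr11:58214892-58214931, plus strand), Tgtp1 (chr11:48992305-48992344, minus strand) and Tgtp2 (chr11:49064264-49064303, minus strand) the GAS letters come first. The first base of the ISRE core there lies 11 bases after the first base of the GAS letters.
Gbp2: ctcttttagtTTCACTTTCactgtcttaa
Gbp7: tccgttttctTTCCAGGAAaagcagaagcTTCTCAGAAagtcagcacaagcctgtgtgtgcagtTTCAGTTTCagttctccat
Igtp: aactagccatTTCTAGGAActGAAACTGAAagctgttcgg
Irgm2: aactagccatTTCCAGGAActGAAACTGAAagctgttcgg
Tgtp1: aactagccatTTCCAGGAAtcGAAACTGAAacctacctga
Tgtp2: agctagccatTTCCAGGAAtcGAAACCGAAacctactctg
The spacing of 11 bases, from first base to first base, was noticed after these sequences had been seen. It was present in 9 of the 32851 windows (0.0274%), 4 of them from these IRGs and 1 from Adar, a gene for an RNA-editing enzyme. The remaining windows belong to Gm12185, Gm32293 and Olfr382 on chromosome 11 and LOC115488470 on chromosome 15. Gm12185 shares 223 bases of exon with Tgtp1, and Olfr382 had a mean count of 0. The Igtp and Irgm2 stretches differ at 1 of 40 bases and the Tgtp1 and Tgtp2 stretches at 6, while an Igtp or Irgm2 stretch differs from a Tgtp stretch at 8 or 9.

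The genes lie in clusters. Gbp5, Gbp7, Gbp3 and Gbp2 lie within 144031 bases of chromosome 3, and Gbp8, Gbp9, Gbp4 and Gbp6 lie on chromosome 5. Of the 7 IRGs, 6 lie on chromosome 11 and Iigp1 lies on chromosome 18. Psmb8 and Psmb9 start 9957 bases apart on chromosome 17, on opposite strands. Parp9 and Dtx3l start 681 bases apart on chromosome 16, on opposite strands, with 458 bases of exon in common.

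None of the 32 genes fell and none rose in the 12-tumour comparison. Across all 17940 genes, 2.33% fell and 2.95% rose. The log2 fold change was negative for 29 of the 32 genes, against 50.1% of all genes, and its median was -0.24, against -0.00033 over all genes. With the log2 library total in the fit, an alternative chosen after seeing the data, 22 of the 32 were negative and the median was -0.10. At an unadjusted edgeR p under 0.05 there was 1 gene lower, Icam1, and 1 higher, Serping1. Each is 3.12% of the 32 genes, under the 14.7% lower and 13.4% higher of all genes at that threshold. For no gene did every anti-CD4 tumour lie below every PBS tumour, against 1.19% of all genes. With DESeq2, 0 genes fell and 1 rose, Serping1, where 6.45% of all genes fell and 7.45% rose by that tool. With limma voom and sample weights, 6 genes fell, Gbp5, Gbp6, Gbp8, Psmb9, Ido1 and Icam1, and 0 rose. Of all 17940 genes, 17.7% fell and 2809 genes rose by that tool. The share of 6 in 32 is thus near the background of that tool.

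**Figure D1:**
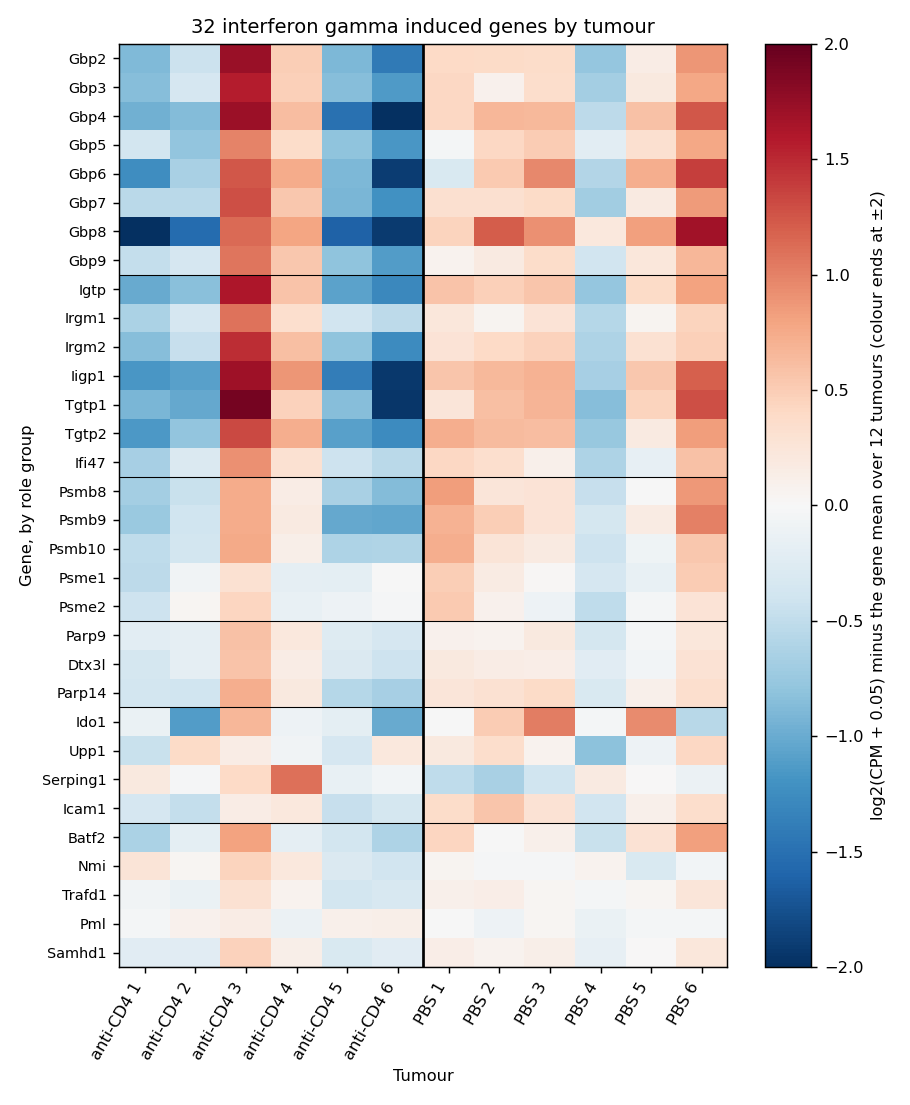
Level of each of the 32 genes (down the page, in 6 role groups divided by lines) in each of the 12 tumours, with anti-CD4 tumours left of PBS tumours. Colour gives log2(CPM + 0.05) minus the gene's mean over the tumours. Anti-CD4 3 has the highest value of all 12 tumours in 21 genes, anti-CD4 1, 2, 5 and 6 are mostly blue in the GTPase rows, and PBS 4 is the lowest PBS tumour in 29 genes.

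The anti-CD4 tumours differed more among themselves than the PBS tumours did. The SD of log2 CPM was larger in anti-CD4 than in PBS tumours for 28 of the 32 genes (87.5%), against 41.9% of all genes. The median SD was 0.64 in anti-CD4 tumours and 0.42 in PBS tumours, against 0.18 in anti-CD4 tumours and 0.20 in PBS tumours over all genes. Anti-CD4 3 and anti-CD4 4 were the top pair of the anti-CD4 group in 27 genes (84.4%, against 11.1% of all genes). Anti-CD4 3 was the highest of all 12 tumours in 21 genes (65.6%, against 5.89% of all genes). The other 4 anti-CD4 tumours all lay below every PBS tumour in 11 genes (34.4%, against 4.5% of all genes), Gbp4, Gbp5, Gbp6, Gbp8, Igtp, Iigp1, Tgtp2, Psmb9, Parp14, Trafd1 and Samhd1. This way of dividing the anti-CD4 tumours was chosen after these values were seen, so the shares describe the pattern and test nothing.

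Tumours differed in the level of most of these genes, though not of all: Upp1 was highest among anti-CD4 tumours in anti-CD4 2, Ido1 was lowest among PBS tumours in PBS 6, and Serping1 was highest among PBS tumours in PBS 4. The median deviation of the 32 genes from their means, on the log2 scale, was -0.53, -0.39, 0.78, 0.26, -0.59 and -0.77 in anti-CD4 tumours 1 to 6 and 0.29, 0.31, 0.28, -0.43, 0.13 and 0.56 in PBS tumours 1 to 6. Anti-CD4 3 lay above every other tumour on this measure, and PBS 4 lay among the low anti-CD4 tumours. The span was widest in the IRGs and GBPs. In anti-CD4 3 the median deviation was 1.48 for the IRGs, 1.27 for the GBPs, 0.75 for the immunoproteasome genes and 0.44 for the nuclear and signalling genes, and in anti-CD4 6 it was -1.26, -1.31, -0.60 and -0.32 in the same order.

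Without anti-CD4 3 and anti-CD4 4, which were left out because these genes are high there, the median log2 fold change of the 32 genes was -0.83 and 21 of them passed the edgeR threshold as lower, against 3.86% of all genes. Because the tumours were picked on the outcome, those 21 are no test of the antibody, and the values only describe the other 4 anti-CD4 tumours beside the 6 PBS tumours. Without anti-CD4 3 alone, the median was -0.63 and 0 genes fell or rose, where 2.03% of all genes fell. At an unadjusted edgeR p under 0.05 there were 18 of the 32 genes, against 2 with all tumours. With all tumours that threshold took in 14.7% of all genes as lower and 13.4% as higher, and the shares for the fit without anti-CD4 3 are not given. Anti-CD4 3 is the highest of the 12 tumours in 21 of the 32 genes, so the 18 are no test of the antibody either. Without PBS 4, 1 gene fell, Icam1 (log2 fold change -0.52, edgeR adjusted p = 0.049), against 1.61% of all genes.

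**Figure D2:**
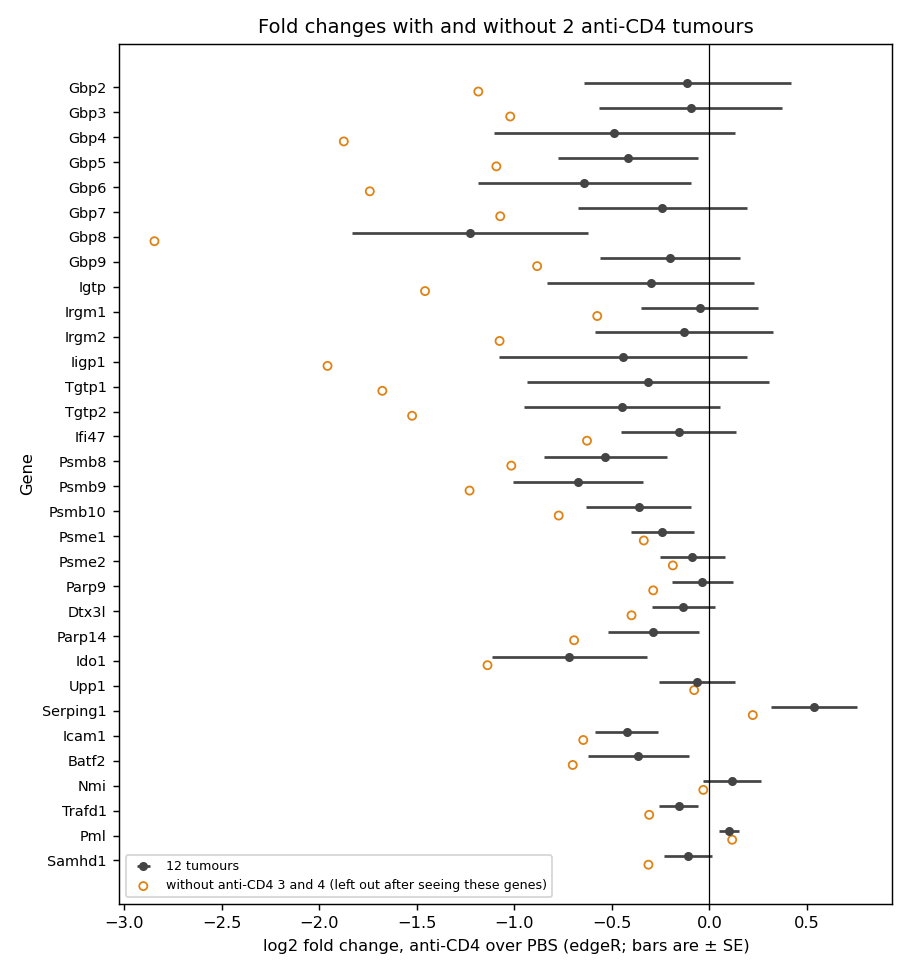
Log2 fold change, anti-CD4 over PBS, of each of the 32 genes. Filled points with bars of ± 1 SE use all 12 tumours, and hollow points leave out anti-CD4 3 and 4, which were picked after seeing these genes. With all 12 tumours 29 points lie left of zero, and the hollow point of Gbp8 lies farthest left, at -2.85.

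The GBPs are large GTPases of the dynamin superfamily that gather on pathogen vacuoles and feed into inflammasome signalling. All 8 had a negative log2 fold change and none passed the test, with values of -0.10 (Gbp3) to -1.23 (Gbp8). With the library total in the fit, Gbp2, Gbp3 and Gbp9 turned positive (0.20, 0.16 and 0.035), as did Irgm1, Irgm2 and Tgtp1 among the IRGs below (0.044, 0.13 and 0.14). Gbp2 had 18.1 (lowest), 30.9 (median) and 159.97 CPM (highest) in anti-CD4 tumours, against 28.1, 62.6 and 89.5 CPM in PBS tumours. The groups overlapped, with anti-CD4 3 above and anti-CD4 1, 5 and 6 below all PBS tumours. Its log2 fold change was -0.11 (SE 0.53, edgeR adjusted p = 0.908). Gbp7, which had 19.5, 30.9 and 110.1 CPM in anti-CD4 tumours against 27.8, 56.2 and 81.4 CPM in PBS tumours, showed the same order of anti-CD4 tumours (log2 fold change -0.24, SE 0.43, edgeR adjusted p = 0.740).

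Gbp8 had the largest SD of log2 CPM among the anti-CD4 tumours, at 1.45 against 0.53 in PBS tumours. Its level was 0.403, 0.629, 4.30, 3.38, 0.595 and 0.476 CPM in anti-CD4 tumours 1 to 6 and 2.65, 4.54, 3.67, 2.25, 3.46 and 6.29 CPM in PBS tumours 1 to 6. Anti-CD4 3 and 4 lay within the PBS range, and the other 4 lay below all of it. The log2 fold change of Gbp8 was -1.23 (SE 0.60, edgeR adjusted p = 0.205), and by limma voom it fell by 2.11 on the log2 scale (adjusted p = 0.00603). Of its 31-base stretches, 31.1% also occur in other genes, so part of its count rests on how reads were shared out. Gbp6 shares 74.3% of its 31-base stretches, mostly with Gm43302, while Gbp2, Gbp3 and Gbp5 share 5.64% or less. Summed into 1 feature, Gbp4, Gbp6, Gbp8, Gbp9 and Gbp10 together gave -0.39 on the log2 scale (SE 0.50, edgeR adjusted p = 0.631). That sum leaves out Gm43302 and also Gbp11, the gene with which Gbp8 shares most (15.5%). Mean counts over the 12 tumours were 1356 for Gbp4 and 1484 for Gbp9, against 107 for Gbp8 and 226 for Gbp6. The value of the sum therefore says little about Gbp8 or Gbp6, and the effect of sharing on their counts was not tested. Gbp3, Gbp4, Gbp5 and Gbp9 had medians of 14.1 to 25.5 CPM in anti-CD4 tumours and 29.5 to 40.8 CPM in PBS tumours.

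**Figure D3:**
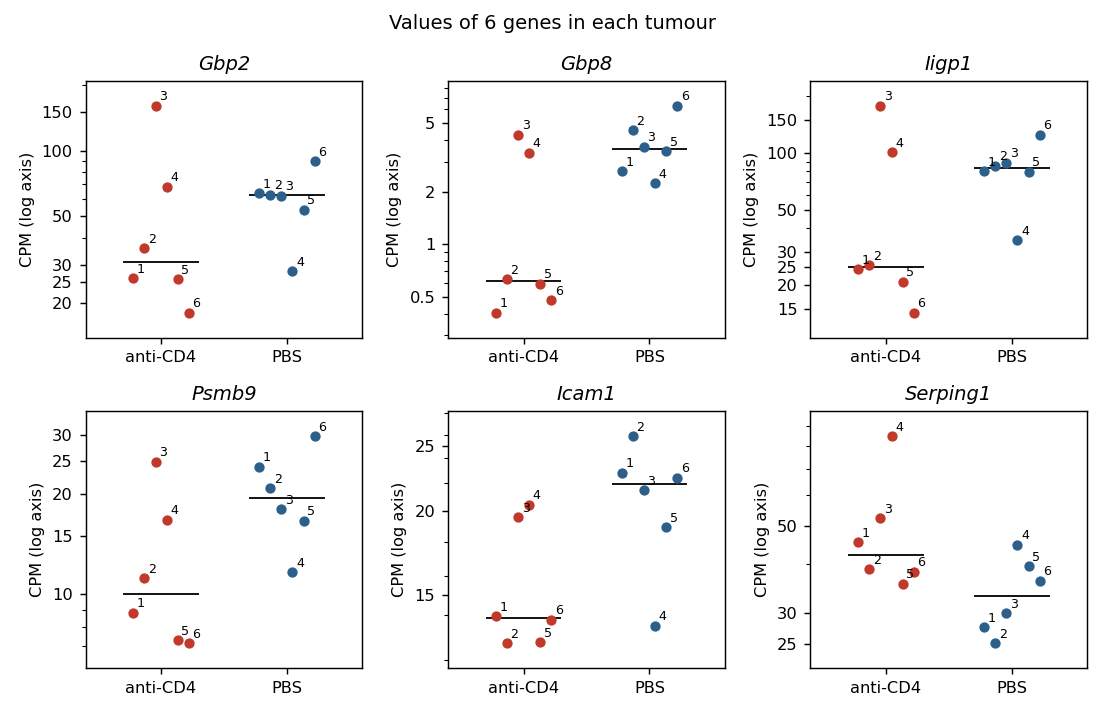
Normalised level (CPM, log axis) of 6 genes in each tumour, with anti-CD4 left of PBS, the tumour number beside each point and a line at the group median. In Gbp8 and Iigp1, anti-CD4 3 and 4 lie at or above the lower PBS values and the other 4 lie under every PBS tumour, while Serping1 is highest in anti-CD4 4, at 84.6 CPM.

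Among the IRGs, Irgm1, Irgm2 and Igtp regulate the other members, and Iigp1, Tgtp1 and Tgtp2 are effectors that load onto the vacuole of parasites such as Toxoplasma. All 7 had a negative log2 fold change, of -0.05 (Irgm1) to -0.45 (Tgtp2), none passed the test, and anti-CD4 3 was the highest of 12 tumours in all 7. Iigp1 had 14.3, 24.9 and 178 CPM in anti-CD4 tumours (lowest, median, highest), against 34.5, 83.0 and 125 CPM in PBS tumours. Its highest and its 4 lowest values of the 12 tumours were all from the anti-CD4 group. The log2 fold change of Iigp1 was -0.44 (SE 0.64, edgeR adjusted p = 0.674).

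Irgm1 had the narrowest spread of the regulators, at 42.4, 51.0 and 138 CPM in anti-CD4 tumours against 44.3, 72.1 and 88.9 CPM in PBS tumours (log2 fold change -0.05, SE 0.30, edgeR adjusted p = 0.931). Tgtp2 had 7.55, 9.48 and 45.3 CPM in anti-CD4 tumours against 10.6, 27.9 and 32.5 CPM in PBS tumours (log2 fold change -0.45, SE 0.50, edgeR adjusted p = 0.583). Tgtp1 and Tgtp2, whose promoter stretches are printed above, share 84.4% and 90.5% of their 31-base stretches with other genes, mostly each other, so their separate counts are uncertain. Summed, they gave -0.41 on that scale (SE 0.53, edgeR adjusted p = 0.634). Igtp, Irgm2, Tgtp1 and Ifi47 had medians of 2.77 to 24.7 CPM in anti-CD4 tumours and 7.39 to 44.6 CPM in PBS tumours. Igtp and Irgm2 overlap by 162 bases of exon on the same strand.

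Of the immunoproteasome genes, Psmb8, Psmb9 and Psmb10 encode the catalytic subunits that replace Psmb5, Psmb6 and Psmb7, and Psme1 and Psme2 encode the PA28 activator that opens the proteasome ring. All 5 had a negative log2 fold change and none passed the test. Psmb9 had 7.15, 10.0 and 24.9 CPM in anti-CD4 tumours, against 11.7, 19.4 and 29.8 CPM in PBS tumours. Anti-CD4 1, 2, 5 and 6 lay below every PBS tumour, and the log2 fold change was -0.67 (SE 0.33, edgeR adjusted p = 0.210). Psmb9 overlaps Tap1 on the opposite strand by 212 bases, and reads there cannot be told apart without strand.

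The PA28 genes varied least in this group of 5. Psme1 had 46.6, 61.2 and 83.0 CPM in anti-CD4 tumours against 52.9, 71.4 and 94.8 CPM in PBS tumours (log2 fold change -0.24, SE 0.16, edgeR adjusted p = 0.340). Psme2 had 33.4, 42.8 and 60.3 CPM in anti-CD4 tumours against 31.2, 45.3 and 64.0 CPM in PBS tumours (log2 fold change -0.09, SE 0.17, edgeR adjusted p = 0.755). Of the 31-base stretches of Psme2, 33.5% are shared, mainly with Psme2b. Psmb8 and Psmb10 had log2 fold changes of -0.53 (SE 0.32) and -0.36 (SE 0.27). Per kb of exon, Psme1 was the most abundant of the 32 genes in both groups, at 28.4 CPM per kb in anti-CD4 tumours and 33.6 CPM per kb in PBS tumours, and Ido1 the least, at 0.151 CPM per kb in anti-CD4 tumours and 0.246 CPM per kb in PBS tumours.

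A ratio of each inducible subunit to the subunit it replaces does not depend on library scaling. The Psmb9 to Psmb6 log2 ratio was -2.54, -2.73, -1.26, -1.82, -3.34 and -3.50 in anti-CD4 tumours 1 to 6 and -1.76, -1.68, -1.79, -1.87, -1.63 and -0.81 in PBS tumours 1 to 6. Anti-CD4 1, 2, 5 and 6 lay below every PBS tumour in this ratio and in both others. The mean difference was -0.94 for Psmb9 to Psmb6 (exact two-sided permutation p = 0.0368, adjusted over the 3 ratios p = 0.0812). For Psmb8 to Psmb5 the ratio averaged -0.50 ± 0.68 in anti-CD4 tumours and 0.25 ± 0.49 in PBS tumours (SD, n = 6 each, difference -0.75, exact permutation p = 0.0541, adjusted p = 0.0812). For Psmb10 to Psmb7 it averaged -0.60 ± 0.65 in anti-CD4 tumours and -0.13 ± 0.32 in PBS tumours (SD, n = 6 each, difference -0.48, exact permutation p = 0.139, adjusted p = 0.139). No ratio passed the adjusted threshold with all 12 tumours. Without anti-CD4 3 the differences were -0.95 for Psmb8, -1.20 for Psmb9 and -0.69 for Psmb10. The exact permutation p-values, adjusted over the 3 ratios, were then 0.0195, 0.013 and 0.0195, so passing the threshold rests on 1 tumour. Anti-CD4 3 had the highest anti-CD4 value of all 3 ratios, so leaving it out can only widen the differences. These p-values are therefore no test of the antibody. The denominators had log2 fold changes of 0.16 (Psmb5), 0.16 (Psmb6) and 0.07 (Psmb7), and none of them passed the test. Of 16 constitutive proteasome genes 15 had a positive log2 fold change (median 0.12), and 1, Psme4, a proteasome activator, rose (0.20, SE 0.05, edgeR adjusted p = 0.0397).

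**Figure D4:**
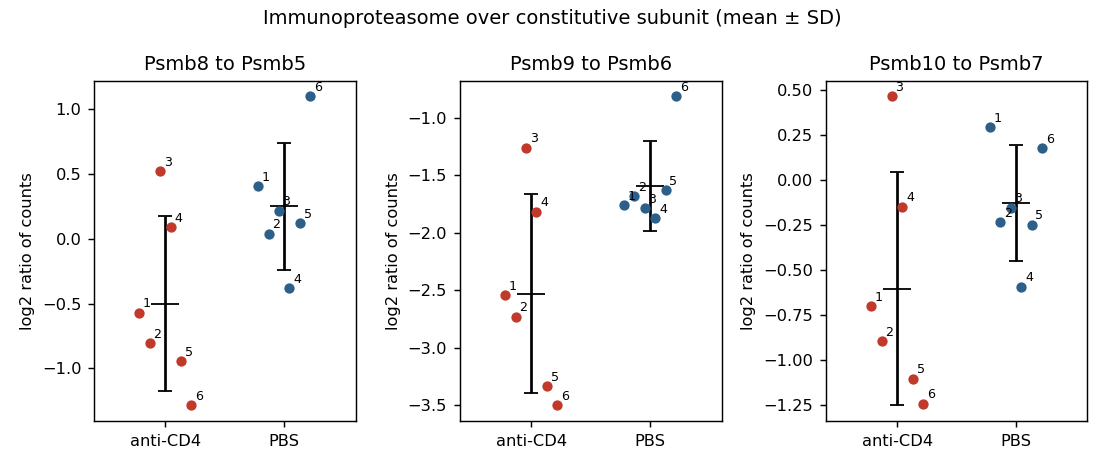
Log2 ratio of the estimated counts of each inducible catalytic subunit to the constitutive subunit it replaces, in each tumour, with the tumour number beside each point and bars at the group mean ± SD (n = 6). Anti-CD4 tumours 1, 2, 5 and 6 lie below every PBS tumour in all 3 panels, and anti-CD4 3 and 4 lie within the PBS range or, for Psmb10 to Psmb7, anti-CD4 3 above it.

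Parp14, a mono-ADP-ribosyltransferase, and Dtx3l, a ubiquitin ligase that works as a complex with Parp9, were, like Parp9, higher in anti-CD4 3 than in any other tumour. Parp14 had 61.3, 74.8 and 162 CPM in anti-CD4 tumours (lowest, median, highest), against 79.2, 118 and 128 CPM in PBS tumours (log2 fold change -0.29, SE 0.23, edgeR adjusted p = 0.436). Dtx3l had 57.0, 65.1 and 114 CPM in anti-CD4 tumours against 65.6, 84.6 and 93.4 CPM in PBS tumours (log2 fold change -0.13, SE 0.16, edgeR adjusted p = 0.607). Parp9 had medians of 41.0 CPM in anti-CD4 tumours and 49.6 CPM in PBS tumours. Its means were closer, at 47.2 and 48.3 CPM in the same order, with anti-CD4 3 at 70.4 CPM (log2 fold change -0.04, SE 0.16).

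In none of the 4 genes for enzymes and secreted or surface proteins was anti-CD4 3 the highest of the 12 tumours. Serping1, the inhibitor of complement C1, had 35.6, 42.2 and 84.6 CPM in anti-CD4 tumours against 25.2, 33.2 and 44.8 CPM in PBS tumours, and was the only 1 of the 32 genes with anti-CD4 4 highest of all tumours. Its log2 fold change was 0.54 (SE 0.22, edgeR adjusted p = 0.142), and with DESeq2 it passed (0.54, SE 0.20, adjusted p = 0.0459). Without anti-CD4 4 the edgeR value was 0.31. Of 7 fibroblast markers, 5 were also highest of the 12 tumours in anti-CD4 4, namely Col1a1, Col1a2, Col3a1, Dcn and Lum, while Pdgfra was highest in anti-CD4 2 and Pdgfrb in anti-CD4 6. Their sum, most of it collagen, was 34277 CPM in anti-CD4 4, against 26849 to 30097 CPM in the other anti-CD4 tumours and 14865 to 27078 CPM in PBS tumours, and 2 of the 7, Lum and Pdgfra, rose. All 5 adipocyte markers were highest in anti-CD4 4 as well, with a sum of 166 CPM there, against 10.99 to 76.5 CPM in the other anti-CD4 tumours and 30.9 to 96.5 CPM in PBS tumours. The sum of 5 skeletal muscle markers was 1249 CPM in anti-CD4 4, against 245 to 919 CPM in the other anti-CD4 tumours and 150.1 to 1220.01 CPM in PBS tumours. None of these 3 lists has a marker at 0 in anti-CD4 4, and the part of those cells in the Serping1 values was not tested.

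Icam1, the ligand of the leukocyte integrin LFA-1, had 12.7, 13.9 and 20.5 CPM in anti-CD4 tumours against 13.5, 21.96 and 25.9 CPM in PBS tumours. PBS 4 lay among the low anti-CD4 tumours, and every other PBS tumour lay above anti-CD4 1, 2, 5 and 6. The log2 fold change of Icam1 was -0.42 (SE 0.16, edgeR adjusted p = 0.116). Ido1, which breaks down tryptophan, was near the limit of detection at 0.121 to 0.538 CPM in anti-CD4 tumours and 0.205 to 0.709 CPM in PBS tumours (log2 fold change -0.72, SE 0.40). Upp1, uridine phosphorylase, had medians of 7.82 CPM in anti-CD4 tumours and 8.34 CPM in PBS tumours.

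Samhd1, which degrades deoxynucleotides, had 188, 198 and 319 CPM in anti-CD4 tumours against 207, 247 and 271 CPM in PBS tumours (log2 fold change -0.11, SE 0.12, edgeR adjusted p = 0.578). Anti-CD4 1, 2, 5 and 6 lay below every PBS tumour. Pml, the scaffold of nuclear bodies, varied least of the 32 genes, with 104, 120 and 124 CPM in anti-CD4 tumours against 102, 109 and 115 CPM in PBS tumours (log2 fold change 0.10, SE 0.05, edgeR adjusted p = 0.221). Trafd1, which restrains innate immune signalling, had a log2 fold change of -0.16 (SE 0.10), Batf2, a transcription factor of the AP-1 family, -0.36 (SE 0.26), and Nmi, first found as a partner of Myc proteins, 0.12 (SE 0.15).

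The remainder of the pathway was read from lists of other genes. Of 10 interferon gamma signalling genes, 1 fell and 0 rose. Irf8, a transcription factor of myeloid cells and dendritic cells, had 23.4, 28.8 and 45.3 CPM in anti-CD4 tumours against 43.5, 52.3 and 66.8 CPM in PBS tumours (log2 fold change -0.80, SE 0.17, edgeR adjusted p = 0.0288). On the same scale Irf1 was at -0.38 (SE 0.25, edgeR adjusted p = 0.330). Of 22 other genes known to be induced by interferon gamma, 2 fell, the MHC class II genes H2-Aa (log2 fold change -1.17) and H2-Eb1 (-1.24), each at an edgeR adjusted p of 0.046, and 0 rose. Of 12 further GBP and IRG genes, 10 were tested, none passed, and the median log2 fold change was -0.24.

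Of 26 type I interferon genes, none passed and the median log2 fold change was 0.0015, with 13 below and 13 above 0. Anti-CD4 3 was nonetheless the highest of all 12 tumours in 20 of these 26, against 21 of the 32 genes described here and 0 of the 16 constitutive proteasome genes. Anti-CD4 1, 2, 5 and 6 lay below every PBS tumour in 2 of the 26.

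Ifng itself was barely detected. Its estimated counts were 3, 1, 10, 16, 2 and 1 in anti-CD4 tumours 1 to 6 and 18, 26, 13, 10, 3 and 23 in PBS tumours 1 to 6. The anti-CD4 tumours with the most Ifng were 3 and 4, which were also the ones with the highest GTPase values. PBS 5 had 3 counts of Ifng and GTPase values above those of PBS 4, which had 10 counts of Ifng. Scaled to library size, Ifng was 0.269 CPM in anti-CD4 3 and 0.318 CPM in anti-CD4 4, both under the PBS median of 0.380 CPM. Anti-CD4 3 was the highest of all 12 tumours in 7 of 7 IRGs and 6 of 8 GBPs. Counts this low leave the order of tumours in Ifng uncertain. The part of Ifng in the levels of these genes was not tested. The log2 fold change of Ifng was -1.71 (SE 0.62, edgeR adjusted p = 0.099).

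CD8 T, cytotoxic, NK and dendritic cell markers, summed by list, were higher in the same pair of anti-CD4 tumours than in the other 4. B cell markers were not. The 10 CD8 T and cytotoxic markers summed to 16.5, 14.5, 33.3, 40.1, 11.7 and 8.09 CPM in anti-CD4 tumours 1 to 6 and 35.9, 36.4, 35.3, 23.2, 27.1 and 60.1 CPM in PBS tumours 1 to 6. Within that list Cd8a alone was 3.43, 3.53, 5.75, 8.02, 2.15 and 1.80 CPM in anti-CD4 tumours 1 to 6, against 3.41 to 7.65 CPM in PBS tumours. Anti-CD4 1 and 2 thus lay within the PBS range of Cd8a, unlike in the sum. The list also holds Cd3d, Cd3e and Cd3g, which mark all T cells, including the CD4 T cells that the antibody removes. Their log2 fold changes were -0.82, -1.28 and -0.92, and none passed the test. The log2 fold change was -0.15 for Cd8a (SE 0.34, edgeR adjusted p = 0.794) and 0.18 for Cd8b1 (SE 0.51, edgeR adjusted p = 0.84). The 6 NK markers summed to 7.03, 7.82, 20.3, 13.4, 5.33 and 4.62 CPM in anti-CD4 tumours 1 to 6 and 20.9, 16.7, 20.1, 14.4, 17.9 and 39.4 CPM in PBS tumours 1 to 6. Anti-CD4 3 and 4 lay within or near the PBS range in both sums, PBS 4 was the lowest PBS tumour in both, and PBS 6 the highest. The 8 dendritic cell markers summed to 34.1, 27.5, 36.4, 41.3, 24.1 and 27.4 CPM in anti-CD4 tumours 1 to 6. In PBS tumours they summed to 43.9 to 78.6 CPM, above every anti-CD4 tumour. The 4 B cell markers summed to 2.31 CPM in anti-CD4 3, the lowest of the 12 tumours, and 4.04 CPM in anti-CD4 4. No CD8 T, cytotoxic or NK marker was at 0 in any tumour. In the 12-tumour test 1 of 10 CD8 T and cytotoxic markers fell, Ccl5, and 1 of 6 NK markers fell, Klre1. Of 8 dendritic cell markers 4 fell, Flt3, Zbtb46, Siglech and Ccr7, and no macrophage, B cell, endothelial, adipocyte or skeletal muscle marker tested passed. The part of these cells in the levels of the 32 genes was not tested.

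**Figure D5:**
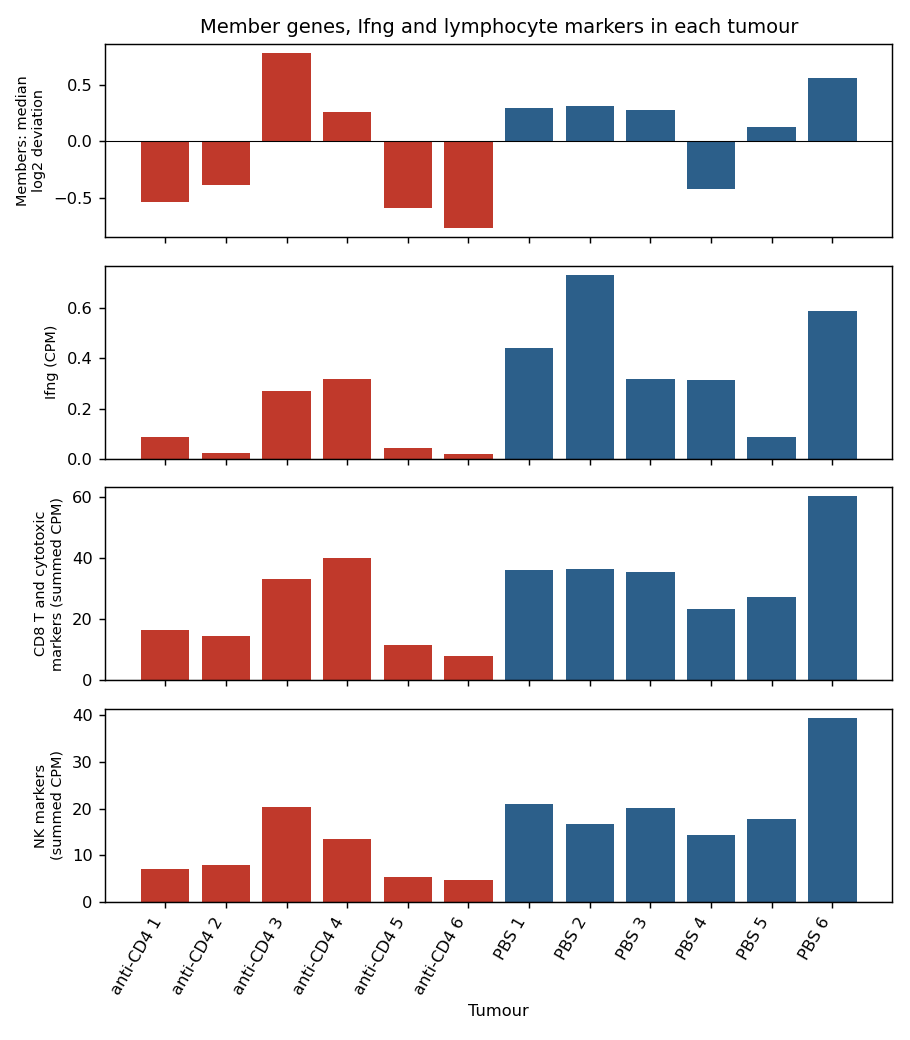
Median log2 deviation of the 32 genes from their means, the level of Ifng (CPM), the summed level of 10 CD8 T and cytotoxic markers (CPM) and the summed level of 6 NK markers (CPM) in each tumour, with anti-CD4 left of PBS. In all 4 panels anti-CD4 3 and 4 stand above the other anti-CD4 tumours. PBS 6 is the highest PBS tumour in 3 of the 4. The CD8 T and cytotoxic list includes Cd3d, Cd3e and Cd3g, which mark all T cells.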

How the data were processed

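Per the labels' protocols, RNA of 12 tumours was rid of ribosomal and globin transcripts and read in 100-base pairs. Bcl2fastq 2.20.0.422, kallisto and the genome GRCm38.p6 are named in the submitters' processing notes. The deposited values are estimated counts by gene name, made by the authors. Annotation release, strand setting and filters: not given in the sources used here. Groups came from the treatment label. The series text states 6 animals in each group, and the labels do not link tumours to animals. The p-values therefore measure the spread between these tumours. None of the 30 same-group pairs were copies (chi-square per degree of freedom 8.01 to 61.1).

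Counts were rounded to whole numbers, kept by filterByExpr, scaled by TMM and tested with the quasi-likelihood F test of edgeR 4.0.16 (R 4.3.3, robust, no covariate), which was tested on simulated data. The biological coefficient of variation was 0.193. The SE of a log2 fold change is approximate. Spread and deviations used log2(CPM + 0.05), and ratios used counts + 0.5 with an exact permutation test over tumours. Coordinates, exon overlaps and shared 31-base stretches came from GENCODE M21, promoters from RefSeq, both on GRCm38. Same-numbered tumours did not deviate together (correlation of deviations over genes -0.41 to 0.23), so no pairing by number was seen. That does not show that there was none.

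The genes and the lists were chosen with earlier results of these data known. All 32 genes are named, and full values are given for called genes and, in each role group, for the 2 with the largest mean CPM and the 1 with the smallest p. 1 gene of the signalling list is not reported here. Gbp6 and Adar details, and the spacing of 11 bases from first base to first base, were chosen after values were seen. Alternatives tried were DESeq2 1.42.0, scaling by RLE or by the upper quartile, limma 3.58.1 voom with sample weights, no filter, 1 CPM in 6 tumours, a replicate block, paralogs summed, 5 added to counts in ratios, and each tumour left out. Leaving out anti-CD4 3 and 4 together, and the log2 library total as a covariate, were chosen after seeing the data.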

Additional observations from a re-analysis of the deposited data

Results flagged for a closer look

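In 8 of 70 groups of 6 values, the highest or lowest tumour lay far from its nearest neighbour relative to the range of its group (Dixon's test). Chance gives this in about 1 in 20 groups, and the 8 come from tumours shared by the genes, so they are not independent. In the anti-CD4 group anti-CD4 3 stood above the others for Gbp2 (159.97 CPM), Gbp3 (72.3 CPM), Tgtp1 (19.5 CPM) and Batf2 (9.62 CPM), and anti-CD4 4 did so for Serping1 (84.6 CPM). In the PBS group PBS 4 stood below the others for Irgm2 (22.9 CPM), PBS 5 did so for Nmi (3.63 CPM), and PBS 6 stood above the others for the Psmb9 to Psmb6 log2 ratio (-0.81).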

How the results depend on the processing

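None of the 32 genes fell or rose under RLE, upper quartile scaling, no filter, 1 CPM in 6 tumours or paralogs summed. Of all genes tested, 2.35%, 1.81%, 0.917%, 2.86% and 2.33% fell in the same order, and 583, 179, 272, 504 and 529 genes rose. Leaving out 1 tumour at a time gave 0 to 1 of the 32 genes lower. Of all genes, 0.171% (without anti-CD4 5) to 8.18% (without PBS 1) fell in those fits. The median log2 fold change of the 32 genes was then -0.63 to -0.11 (main -0.24). It was -0.63 without anti-CD4 3, -0.16 without anti-CD4 1 or 2, -0.13 without anti-CD4 5, and -0.11 without anti-CD4 6 or PBS 6. DESeq2 called 1 gene higher (7.45% of all genes) and voom called 6 lower (17.7% of all genes). Without both anti-CD4 3 and 4, picked on these genes, 21 genes passed as lower, against 3.86% of all genes. The median was then -0.83, and the ratio differences were -1.15 (Psmb8), -1.44 (Psmb9) and -0.86 (Psmb10). Leaving out 1 tumour at a time, these differences ran over -0.95 to -0.58, -1.20 to -0.75 and -0.69 to -0.35. With a replicate block, 0 of the 32 genes were called, the median was -0.41, and 14 genes fell and 19 rose among all genes, against 418 and 529. 0 of 6 anti-CD4 tumours correlated best with the PBS tumour of the same number. Signs turned for some genes. Leaving out 1 tumour gave -0.79 to 0.072 for Gbp2, -0.67 to 0.069 for Gbp3, -0.37 to 0.057 for Irgm1, -0.66 to 0.040 for Irgm2, -0.18 to 0.026 for Parp9, -0.19 to 0.021 for Upp1 and -0.19 to 0.030 for Psme2. With library total (log2) as covariate, Gbp2 was 0.20, Gbp3 0.16, Gbp9 0.035, Irgm1 0.044, Irgm2 0.13, Tgtp1 0.14 and Parp9 0.019, the median was -0.10 with 22 of 32 negative, and 5 genes fell and 0 rose among all genes. With voom, Psme2 was 0.0091 and Nmi -0.0030, and without both tumours Nmi was -0.031. The cause of these turns was not tested.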
